A study of Mus musculus with 16 samples.

Results

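This account concerns 8 genes that mark the fluid and membrane linings of the brain: Ttr, Folr1, Kl and Clic6 of the choroid plexus epithelium, Foxj1 of ependymal cells, and Ptgds, Igfbp2 and Apod of the meninges. They were chosen by gene name among the non-control probes of a 2-colour mouse array, which gave 11 probes of 41173, and all 11 passed the filter on dim spots that kept 39226 probes. The 8 genes were 8 of 28655 genes on the array. Folr1, Kl and Clic6 had 2 probes each and the other genes had 1. On 16 arrays, the red channel held amplified cDNA of GAD67-eGFP cells, that is GABAergic cells sorted by a fluorescent reporter of Gad1, the gene of the GABA-synthesizing enzyme GAD67, from mice at postnatal day 1 on a C57Bl/6 background. The sorted cells came from whole brain (4 arrays, from 4 mice) or from dissected olfactory bulb, cortex, striatum or cerebellum (3 arrays each, from 6 mice), and the labels do not say which animals were pooled or whether the regions of a replicate share animals. The green channel of every array held a common reference, the RNA of unsorted whole brain of 4 age-matched mice amplified in the same way, so that sorted cells and unsorted tissue were compared on each array. The dyes were not swapped, and the label of the reference names its dye as Cy3 but its colour as red. The direction of every ratio below therefore rests on the dye names.

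The choroid plexus is a secretory epithelium that hangs into the ventricles and makes cerebrospinal fluid. Ependymal cells line the ventricle walls and move the fluid with motile cilia, and the meninges are fibroblast-rich membranes around the brain. None of the 3 is neuronal tissue. In mixed material such as the reference, fewer cells of a type and less RNA per cell cannot be told apart.

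A log2 ratio below is the normalized log2 intensity of the sorted cells minus that of the reference on the same array, and a probe was called when the adjusted p of limma's moderated test was under 0.05 over all 39226 probes. Median spot intensities ranged from 150.9 to 717.5 in the sorted channel and from 92 to 254 in the reference channel, and 78.1% to 96.6% and 72.1% to 90.7% of spots were well above background. Arrays of a group correlated at 0.934 to 0.992. The sorted identity was checked with 8 genes of GABAergic neurons. All 8 were higher than in the reference in olfactory bulb, cortex and striatum, and 6 were higher in cerebellum, but in whole brain 5 were higher and 3 lower. Of all genes, 36.1% to 42.8% were higher in the 4 regions, and in whole brain 45.2% were higher and 34.5% lower. Gad1, the gene the reporter stands for, was at -1.51 ± 0.08 (SE, n = 4) in whole brain, against 0.79 to 0.91 in the 4 regions, and Gad2 was at -0.28 ± 0.07, so the cells labelled whole brain went against that label for both genes. Slc32a1, another of the 8, was at 1.21 ± 0.07 in whole brain, against 0.49 to 1.50 in the 4 regions. The median of the 8 in whole brain was 1.22. All 4 whole-brain arrays were scanned in a session of their own, and whole brain and scan session cannot be told apart.

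The 8 genes fell into 3 patterns. Ptgds and Apod were far lower in sorted cells than in unsorted brain on all 16 arrays, and Foxj1 was lower on all 16. Ttr was lower on 13 arrays and higher on the 3 striatal ones. Folr1, Kl, Clic6 and Igfbp2 stayed within 1 log2 unit of the reference on every array. Over the mean of the 4 regions, 4 of the 11 probes were higher than the reference, where 43.4% of all probes tested were, and 7 were lower, where 40.5% were. Whole-brain cells had 2 probes higher and 5 lower, against 41.2% and 38.1% of all probes. Cells of olfactory bulb had 1 higher and 7 lower (34.6% and 32.8% of all), those of cortex 2 and 7 (34.8% and 33.6%), those of striatum 3 and 3 (34.1% and 33.3%), and those of cerebellum 2 and 6 (38.8% and 36.4%). Calls are thus common on these arrays in either direction, and the sizes below say more than the counts. Over the 11 probes, 6 of which belong to Folr1, Kl and Clic6, the median log2 ratio was -0.07 for whole brain, -0.43 for olfactory bulb, -0.26 for cortex, 0.10 for striatum and -0.46 for cerebellum, against 0.01 to 0.04 over all probes. Over the 8 genes, each by its brightest probe, it was -0.81 for whole brain, -1.06 for olfactory bulb, -0.72 for cortex, 0.14 for striatum and -0.87 for cerebellum, against 0.03 to 0.09 over all genes.

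**Figure D1:**
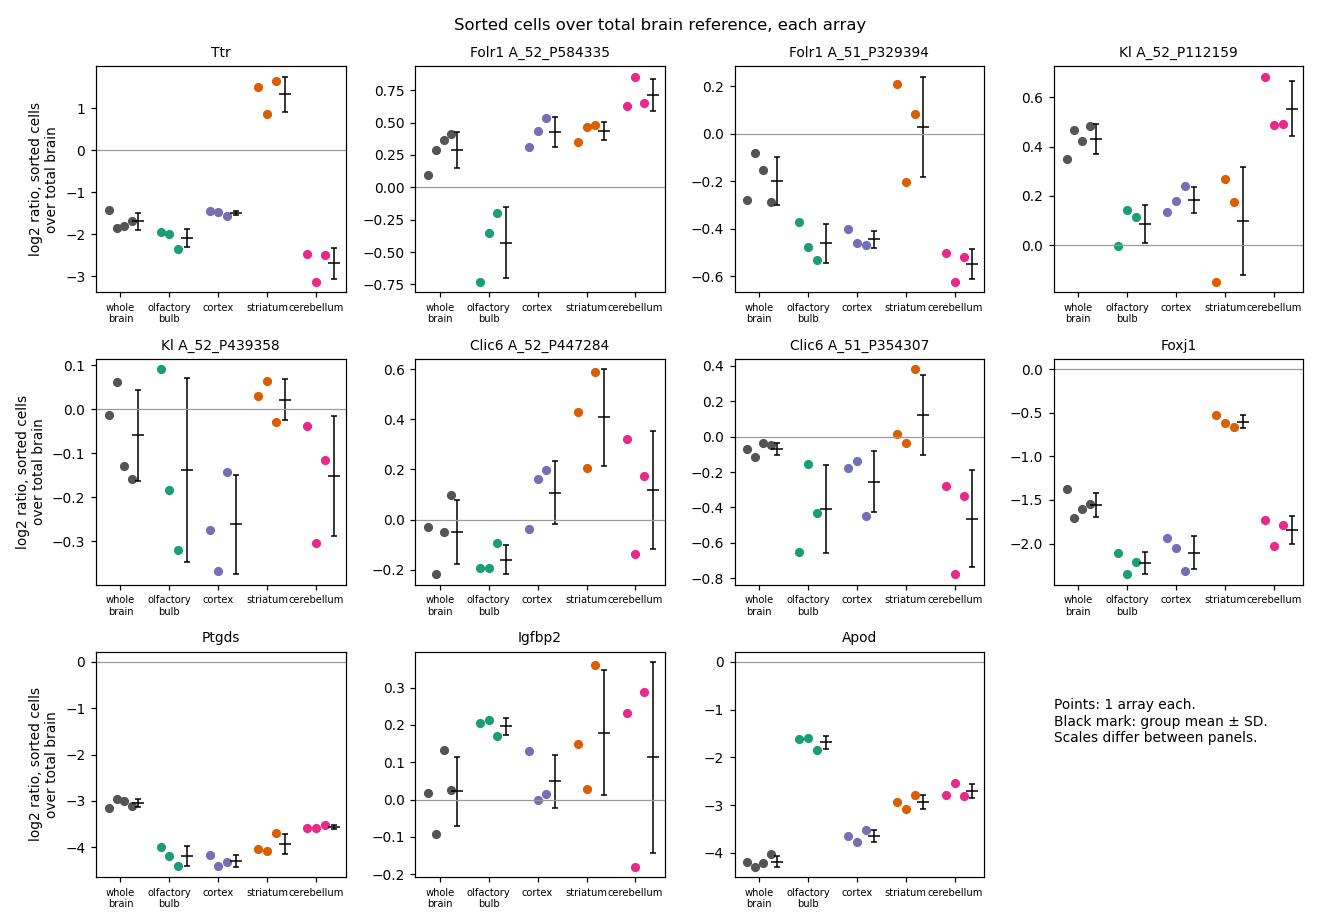
Log2 ratio of sorted cells over the total brain reference for each of the 11 probes. Each point is 1 array, the black marks are the group mean ± SD, and the vertical scale differs between panels. The 3 striatal arrays lie above 0 for Ttr while the other 13 lie below, and all 16 arrays lie below 0 for Foxj1, Ptgds and Apod.

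Ttr encodes transthyretin, the carrier of thyroxine and of retinol-binding protein, and is a defining product of the choroid plexus. Its log2 ratio was 1.50, 0.85 and 1.64 on the 3 striatal arrays, and -1.42, -1.86, -1.81 and -1.69 on the whole-brain arrays. It was -1.94, -1.99 and -2.34 in olfactory bulb, -1.44, -1.48 and -1.55 in cortex, and -2.47, -3.13 and -2.48 in cerebellum. The striatal arrays were high and overlapped no other group. Striatal cells thus held 2.51-fold more Ttr than the reference (adjusted p = 3.1e-08), while cells of olfactory bulb held 4.26-fold less, of cortex 2.81-fold less and of cerebellum 6.46-fold less.

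Against the mean of the other 3 regions, Ttr was higher in striatum by 3.42 ± 0.15 on the log2 scale (SE), or 10.7-fold, with an adjusted p of 4.84e-11. This was the highest striatal difference of the 39226 probes tested. It lay in the sorted channel, where striatum exceeded the other regions by 3.32, whereas the reference channel differed by -0.10 (adjusted p = 0.799). Raw spot intensity was 1871 to 4004 in the sorted striatal channel and 164 to 333 in sorted cells of the other 3 regions, and the reference spot of the 16 arrays ranged from 335 to 1020. Cerebellum was lowest for Ttr, by -1.94 ± 0.15 against the other regions (adjusted p = 1.24e-08), and its arrays did not overlap those of the other regions. Olfactory bulb was lower by -1.14 (adjusted p = 2.08e-05), with arrays that overlapped. In both comparisons the mean of the other 3 regions includes striatum. The olfactory bulb mean of -2.09 lay between those of cortex (-1.49) and cerebellum (-2.69), so its call rests on the striatal arrays. In the order of the 5 group means, striatum came before cortex, whole brain, olfactory bulb and cerebellum, and only the arrays of cortex and whole brain overlapped among neighbours.

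The order for Foxj1, the transcription factor that switches on the motile cilia program of ependymal cells, was led by striatum as well. Its log2 ratio was -0.53, -0.61 and -0.66 on the striatal arrays, against -2.10, -2.35 and -2.21 in olfactory bulb, -1.94, -2.06 and -2.32 in cortex, and -1.73, -2.03 and -1.78 in cerebellum. Whole-brain cells stood between, at -1.38, -1.71, -1.61 and -1.55. Striatal cells held 1.52-fold less Foxj1 than the reference and cells of the other regions 3.6- to 4.66-fold less. Striatum exceeded the mean of the other regions by 1.46 ± 0.09 on the log2 scale, or 2.75-fold (adjusted p = 4.88e-09), which placed Foxj1 as number 15 from the top of 39226 probes. With each array only centred on its median, the striatal ratio to the reference was -0.26, still a call. The sorted channel differed by 1.45 and the reference channel by -0.01 (adjusted p = 0.989). Cortex was lower than the other regions by -0.55 ± 0.09 (adjusted p = 0.000874) and olfactory bulb by -0.70 ± 0.09 (adjusted p = 1.67e-05). Both had arrays that overlapped those of other regions, and both means of the others include striatum. The group means were -2.10 in cortex, -2.22 in olfactory bulb and -1.85 in cerebellum, so most of these 2 differences comes from striatum. All 9 calls made for Foxj1 remained calls in the same direction under every alternative processing run and without any single array.

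**Figure D2:**
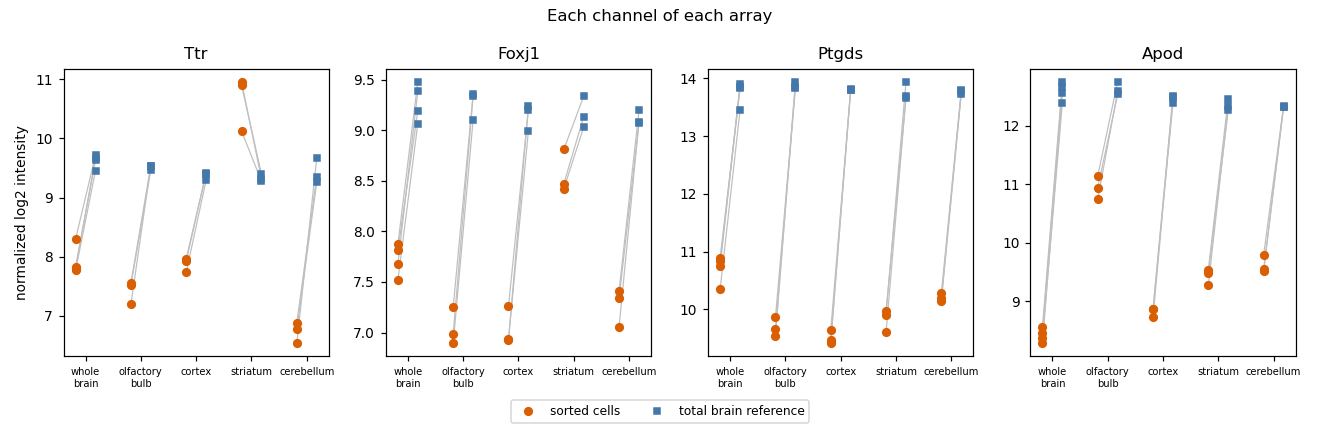
Normalized log2 intensity of the sorted cells (circles, left) and the total brain reference (squares, right) for Ttr, Foxj1, Ptgds and Apod, with a line joining the channels of 1 array. The reference varies by less than 0.5 log2 units over the 16 arrays for each gene, and the sorted channel carries the spread between groups.

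Clic6 encodes a chloride intracellular channel protein that is abundant in choroid plexus epithelium. For probe A_52_P447284 the log2 ratio was 0.43, 0.20 and 0.59 in striatum, against -0.19, -0.19 and -0.09 in olfactory bulb, -0.04, 0.16 and 0.20 in cortex, and 0.32, -0.14 and 0.17 in cerebellum. For probe A_51_P354307 it was 0.02, -0.03 and 0.38 in striatum, against -0.65, -0.15 and -0.43, then -0.18, -0.14 and -0.45, then -0.28, -0.78 and -0.33 in the same 3 regions. Both probes were higher in striatum than in the other regions, by 0.39 ± 0.10 (adjusted p = 0.00665, arrays overlapping) and 0.50 ± 0.12 (adjusted p = 0.00368, arrays not overlapping) on the log2 scale. Without striatum replicate 3 the differences were 0.30 and 0.37, with adjusted p of 0.07 and 0.051, so both calls rest on that array. Probe A_52_P447284 was also lower in olfactory bulb than in the other regions, by -0.37 ± 0.10 (adjusted p = 0.00794). Probe A_51_P354307 was dim: its sorted spot was not well above background on any cortical array, where the ratio is bounded only as at least 1.19-fold lower than the reference, and the mean of the other regions in its striatal difference includes those arrays.

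Folr1 encodes folate receptor alpha, which carries folate across the choroid plexus, and its 2 probes gave different patterns. Probe A_52_P584335 stood at 0.43 ± 0.07 in striatum, -0.43 ± 0.27 in olfactory bulb, 0.43 ± 0.12 in cortex and 0.71 ± 0.12 in cerebellum (SD, n = 3 each). Against the other 3 regions it was lower in olfactory bulb by -0.95 ± 0.10 (SE, adjusted p = 1.11e-06) and higher in cerebellum by 0.57 ± 0.10 (adjusted p = 0.000164), with no overlap of arrays in either comparison. With the mean of both Folr1 probes the cerebellar difference was 0.16 and not called (adjusted p = 0.0576). The reference channel of that probe was itself lower on the olfactory bulb arrays, by -0.55 (adjusted p = 0.0135), and the sorted channel by -1.50. Without olfactory bulb replicate 1 its mean ratio to the reference there was -0.28, and it was still called, but with median centring alone it was -0.011 and not called. In whole brain this probe stood at 0.09, 0.29, 0.36 and 0.41, a call (adjusted p = 0.00142) on the same side as cortex, striatum and cerebellum. Probe A_51_P329394 stood at 0.03 ± 0.21 in striatum, -0.46 ± 0.08 in olfactory bulb, -0.44 ± 0.04 in cortex and -0.55 ± 0.06 in cerebellum (SD, n = 3 each). With median centring alone the ratios in olfactory bulb and cortex were -0.024 and -0.14, and neither was called. It was higher in striatum than in the other regions by 0.51 ± 0.08 (SE, 1.43-fold, adjusted p = 0.000158), with no overlap of arrays. In cerebellum it was lower than in the other regions by -0.26 ± 0.08 (adjusted p = 0.0169), a call lost without cerebellum replicate 2 (-0.22, adjusted p = 0.083). The call was also lost in the sorted channel alone (-0.17, adjusted p = 0.12) and with arrays scaled to a common spread (-0.19, adjusted p = 0.096). The mean of the others includes striatum, so most of this difference comes from striatum, and the cerebellar arrays overlapped those of olfactory bulb. In whole brain this probe was at -0.28, -0.08, -0.15 and -0.29 (adjusted p = 0.00578), and its mean turned to 0.32 with median centring. Over 16 arrays the 2 probes correlated at 0.02 and had opposite signs on 11.

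Kl encodes klotho, a membrane protein and FGF co-receptor found in choroid plexus as well as kidney. The array annotates probe A_52_P112159 to a transcript of the secreted form and probe A_52_P439358 to the full-length transcript. The log2 ratio of A_52_P112159 was 0.68, 0.49 and 0.49 in cerebellum, against -0.00, 0.14 and 0.12 in olfactory bulb, 0.13, 0.18 and 0.24 in cortex, and -0.15, 0.27 and 0.18 in striatum. In whole brain it was 0.35, 0.47, 0.42 and 0.48, which is 1.35-fold above the reference (adjusted p = 2.54e-06). Among regions it was highest in cerebellum, by 0.43 ± 0.08 against the other regions (SE, 1.35-fold, adjusted p = 0.000402), with no overlap of arrays. With the mean of both Kl probes the test among regions was not passed (adjusted p = 0.0583). The other Kl probe was well above background in sorted cells on 11 of 16 arrays, ranged from -0.37 to 0.09, and showed no difference among regions that passed the test (adjusted p = 0.146). Over 16 arrays the 2 Kl probes correlated at -0.04 and had opposite signs on 14. The 2 Clic6 probes correlated at 0.55 and had opposite signs on 6.

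**Figure D3:**
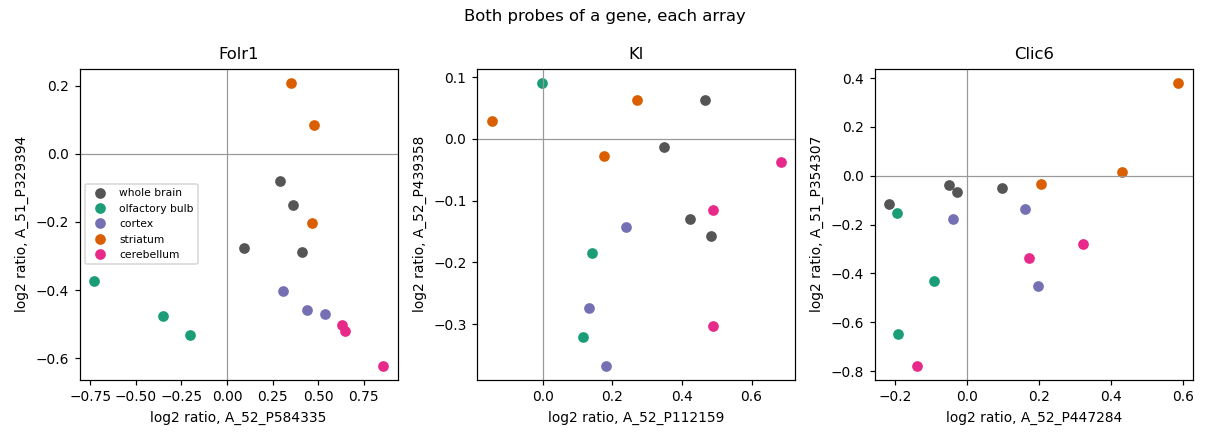
Log2 ratio of the second probe against that of the first for Folr1, Kl and Clic6. Each point is 1 array coloured by group, and points above 0 on only 1 axis have opposite signs. Opposite signs occur on 11 arrays for Folr1, 14 for Kl and 6 for Clic6.

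Ptgds encodes the lipocalin-type prostaglandin D synthase, made by the meninges and choroid plexus and later by oligodendrocytes, and Apod encodes apolipoprotein D, a lipid-binding lipocalin of meningeal and perivascular cells and of the oligodendrocyte lineage. These genes had the lowest ratios of the 8. Their promoters are shown because both are lipocalins with low ratios in sorted cells and different regional orders. Promoter windows from RefSeq on build GRCm38.p6 were matched to 4 of the 8 genes. None was used for Ttr, Foxj1, Folr1 or Clic6, which does not show that RefSeq lacks one for them. The Ptgds window is chr2:25469700-25469999 and the Apod window chr16:31314759-31315058, both on the minus strand and running from 250 bases before the transcript start to 50 after it. Capitals mark each E-box, searched as CANNTG, whose complement reads the same.
Ptgds: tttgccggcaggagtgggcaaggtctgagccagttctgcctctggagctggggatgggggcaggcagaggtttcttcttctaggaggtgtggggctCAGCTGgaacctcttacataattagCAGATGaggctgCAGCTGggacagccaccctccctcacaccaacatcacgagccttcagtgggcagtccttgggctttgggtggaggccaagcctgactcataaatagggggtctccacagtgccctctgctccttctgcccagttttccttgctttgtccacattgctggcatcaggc
Apod: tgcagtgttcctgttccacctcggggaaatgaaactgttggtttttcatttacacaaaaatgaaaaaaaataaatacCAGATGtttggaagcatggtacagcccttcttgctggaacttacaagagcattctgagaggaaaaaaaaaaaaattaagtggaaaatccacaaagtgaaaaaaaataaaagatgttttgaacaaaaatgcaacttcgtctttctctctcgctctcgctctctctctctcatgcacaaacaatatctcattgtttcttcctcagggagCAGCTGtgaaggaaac
The Ptgds window held 3 E-boxes and the Apod window 2, and 72.3% of the 32851 promoter windows of the same length held at least 1. Neither window held TATAAA, found in 13.6% of windows, or GGGCGG, found in 35.7%, on either strand, and no motif overlapped another. A match is a match of letters and no record of binding.

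Ptgds had a log2 ratio of -3.14, -2.96, -3.00 and -3.10 in whole brain. It was -3.99, -4.19 and -4.40 in olfactory bulb, -4.16, -4.41 and -4.33 in cortex, -4.03, -4.08 and -3.68 in striatum, and -3.58, -3.58 and -3.51 in cerebellum. Over the mean of the 4 regions it was 16-fold lower in sorted cells than in the reference (log2 -4.00 ± 0.04, SE, adjusted p = 2.12e-23), the number 4 from the bottom among 39226 probes. The ratio was nearest to 0 in whole brain, at 8.28-fold lower, and farthest from it in cortex, at 19.7-fold lower. The sorted spot read 452 to 3359 and the reference spot 7211 to 21082 over the 16 arrays. Among regions, cerebellum was higher by 0.58 ± 0.09 (1.5-fold, adjusted p = 8.47e-05, no overlap of arrays; 0.28 with median centring and 1.37 with arrays scaled to a common spread, both calls) and cortex lower by -0.40 ± 0.09 (adjusted p = 0.00996, arrays overlapping). The cortical call was lost without cortex replicate 2 (-0.35, adjusted p = 0.072) or replicate 3 (-0.39, adjusted p = 0.059). Olfactory bulb was lower by -0.26 ± 0.09 (adjusted p = 0.0434), a call that 8 of the 16 runs without 1 array ended, with values from -0.27 to -0.16. The mean of the others includes the higher cerebellum. Olfactory bulb, at a mean of -4.19, lay between striatum (-3.93) and cortex (-4.30), with arrays that overlapped both, so this call does not set it below both.

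Apod had a log2 ratio of -4.19, -4.29, -4.22 and -4.03 in whole brain. It was -1.61, -1.60 and -1.84 in olfactory bulb, -3.64, -3.78 and -3.53 in cortex, -2.93, -3.08 and -2.78 in striatum, and -2.78, -2.54 and -2.81 in cerebellum. The olfactory bulb arrays were the highest and overlapped no other group. Sorted cells of olfactory bulb held 3.22-fold less Apod than the reference, those of cerebellum 6.55-fold less, of striatum 7.62-fold less, of cortex 12.6-fold less and of whole brain 18.2-fold less. The sorted spot read 1618 to 2200 in olfactory bulb and 282 to 2696 on the other arrays, whose overall brightness differed. Olfactory bulb exceeded the other 3 regions by 1.41 ± 0.09, or 2.66-fold (adjusted p = 9.58e-10), and the sorted channel there was higher by 1.66. Cortex was lower than the others by -1.21 ± 0.09, or 2.31-fold (adjusted p = 5.83e-08), again with no overlap. Striatum was lower by -0.25 ± 0.09 (adjusted p = 0.042, arrays overlapping), and 8 of the 16 runs without 1 array ended that call, with values from -0.25 to -0.17. The mean of the others includes the high olfactory bulb. Striatum, at a mean of -2.93, lay between cerebellum (-2.71) and cortex (-3.65), so this call does not set striatum below both. Of neighbours in the order, only cerebellum and striatum had arrays that overlapped.

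Igfbp2, which binds insulin-like growth factors and is made by meninges and choroid plexus, had bright spots in both channels, 2274 to 9598 in sorted cells and 1677 to 4868 in the reference. Its log2 ratio was 0.02, -0.09, 0.13 and 0.03 in whole brain. It was 0.21, 0.21 and 0.17 in olfactory bulb, 0.13, -0.00 and 0.01 in cortex, 0.15, 0.03 and 0.36 in striatum, and 0.23, -0.18 and 0.29 in cerebellum. Every group other than olfactory bulb and striatum held arrays on both sides of 0, and the whole range ran from -0.18 to 0.36. The mean over the 4 regions was 0.13 ± 0.04 (SE, 1.1-fold higher in sorted cells, adjusted p = 0.00426), with 10 of 12 regional arrays above 0. The regions showed no difference that passed the test (adjusted p = 0.605), and the arrays of all neighbours in the order overlapped. With median centring alone the regions did differ (adjusted p = 0.0314), and the ratio was 0.46 in whole brain (adjusted p = 5.45e-05) and 0.43 in striatum (adjusted p = 0.000661), both calls. In olfactory bulb the ratio was 0.20 ± 0.08 (adjusted p = 0.0362), a call lost without any of its 3 arrays (0.19 to 0.21, adjusted p 0.078 to 0.12).

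Among the 4 regions, limma's moderated F test called 9 of the 11 probes, with 55.9% of all probes called. Against the other 3 regions, striatum had 5 member probes higher and 1 lower, against 14.1% and 14.2% of all probes. Olfactory bulb had 1 higher and 5 lower (14.4% and 14.6% of all), cerebellum 3 and 2 (21.3% and 19.2%), and cortex 0 and 3 (4.27% and 5.97%). These counts are not independent, since a region that stands apart also shifts the mean against which the others are set. Striatum does so for Ttr, Foxj1 and Folr1 probe A_51_P329394, olfactory bulb for Apod, and cerebellum for Ptgds. With each array centred on its median instead, 62.7% of all olfactory bulb calls were higher ones, against 49.8% in the main processing. The highest regional mean fell to striatum for 6 of the 11 member probes, where 22.8% of all probes have it, to cerebellum for 3 (34.2% of all), to olfactory bulb for 2 (26.4%) and to cortex for none (16.6%). Member probes whose arrays did not overlap those of the other regions numbered 4 in striatum (14.1% of all probes), 2 in olfactory bulb (12.2%), 4 in cerebellum (21%) and 1 in cortex (4.27%).

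**Figure D4:**
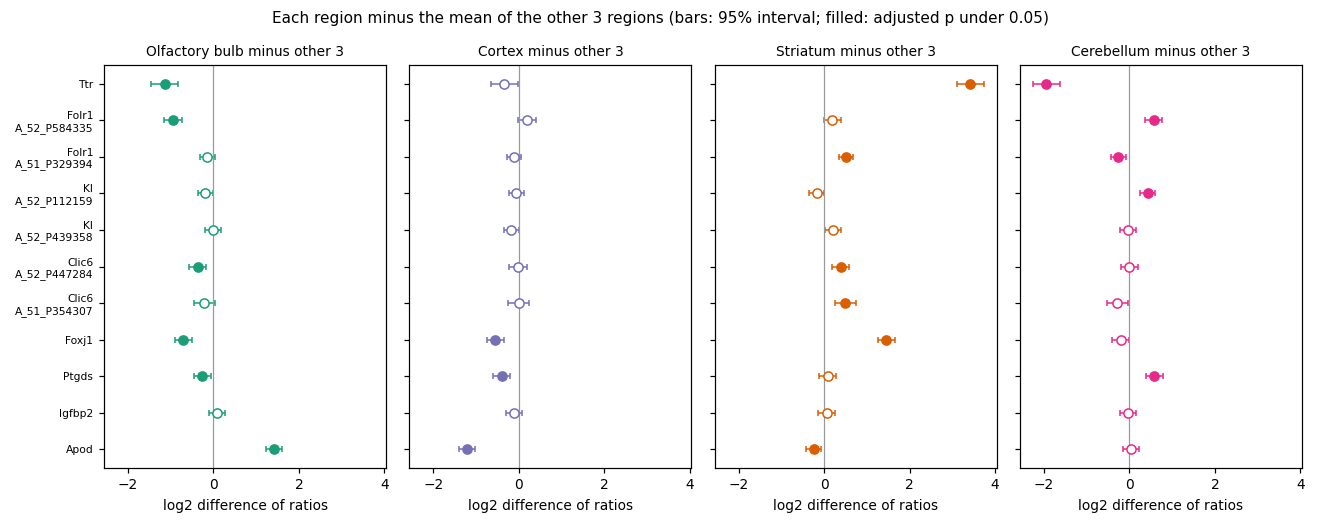
Difference in log2 ratio of each region minus the mean of the other 3, for each probe, with the 95% interval. Filled circles passed an adjusted p of 0.05. Ttr stands at 3.42 and Foxj1 at 1.46 in striatum, and Apod at 1.41 in olfactory bulb.

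Whole-brain cells differed from the mean of the 4 regions for 4 of the 11 probes, 2 higher (29.9% of all probes) and 2 lower (32.9%). Ptgds was higher in whole brain by 0.95 ± 0.08 (SE, 1.93-fold, adjusted p = 3.49e-09), and Apod lower by -1.44 ± 0.08 (2.71-fold, adjusted p = 1.88e-12), both with arrays that overlapped no regional array, as for 30.4% of all probes. With arrays scaled to a common spread, the differences became 1.80 and -0.47. Kl probe A_52_P112159 was higher by 0.20 ± 0.07 (adjusted p = 0.0204), a call lost without whole brain replicate 2 or 4 (0.19 and 0.18). Ttr was lower by -0.46 ± 0.13 (adjusted p = 0.00533) and the sorted channel alone gave -0.25 (adjusted p = 0.13). That call was also lost with median centring (-0.26), the scanner's own ratio (-0.23) and arrays scaled to a common spread (-0.19). The mean of the regions includes striatum (1.33) for Ttr. The whole-brain mean of -1.69 lay above those of olfactory bulb (-2.09) and cerebellum (-2.69), and its arrays overlapped those of cortex (-1.49). So the Ttr call rests on the striatal arrays. The scan session differs in the same way as the groups for all 4 probes.

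Other genes of the same tissues were read from lists written with earlier results of these data known. Of 30 measured choroid plexus genes outside the 8, 5 were higher than the reference and 21 lower over the mean of the 4 regions, with a median of -0.31, against 46.3% and 37.8% of all genes and a median of 0.04. Igf2, a growth factor of choroid plexus and meninges, was lowest, at -3.52 in the regions and -5.22 in whole brain. Slc4a10, a bicarbonate transporter, was at -2.16 and -2.79, Trpm3, a cation channel, at -1.51 and -2.04, and Spint2, a protease inhibitor, at -1.58 and -1.76. In the other direction stood Slc13a4, a sulfate transporter, at 0.82 and 0.88, and Car12, a carbonic anhydrase, at 1.02 and 0.65, although 1 of the 2 Car12 probes was below 0 in each comparison.

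In striatum against the other regions, 9 of these 30 genes were higher and 4 lower, with a median of 0.13, against 13.4% and 16.3% of all genes and a median of -0.03. Enpp2, which makes lysophosphatidic acid, was higher by 1.41 ± 0.12 (SE, 2.67-fold, adjusted p = 2.3e-07), and Sostdc1, a secreted BMP and Wnt antagonist, by 1.26 ± 0.13 (2.39-fold, adjusted p = 2.33e-06). Igf2 was higher by 0.91 ± 0.09. Wfdc2 (-1.21), a secreted protein with whey acidic protein domains, and Aqp1 (-0.86), the water channel of the plexus epithelium, were lower. The gene Otx2, a transcription factor of choroid plexus and also of hindbrain progenitors, was higher in cerebellum by 2.85 ± 0.12 (7.23-fold, adjusted p = 1.7e-12) and lower in cortex (-1.49) and olfactory bulb (-1.16).

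Of 32 measured ependymal and cilium genes other than Foxj1, 17 were higher and 13 lower than the reference over the regions (median 0.14). Of all genes, 46.3% were higher and 37.8% lower over the regions. In whole brain 19 of the 32 were higher and 11 lower (median 0.44), against 45.2% and 34.5% of all genes and a median of 0.09. Spag17, of the central pair apparatus, was at 1.77 in the regions and 1.82 in whole brain, and Lrrc23, of the radial spoke, at 1.00 and 1.45. The dynein heavy chain gene Dnah11 was at 1.01 in the regions. Rarres2, a secreted chemoattractant, was at -0.73 and -0.92, and Ccdc40, needed for axoneme assembly, at -0.59 and -0.43. Pifo, a gene of ciliated cells, was at -0.66 in the regions and -0.44 in whole brain, and Ccdc39, the partner of Ccdc40, at -0.60 in whole brain, so cilium genes stood at both ends of the list. Against the other regions, striatum had 4 of the 32 genes higher and 10 lower (median -0.04), unlike Foxj1. Of all genes, 13.4% were higher and 16.3% lower there. Mia at 0.75 and Pifo at 0.47 were among the 4 higher genes and Spag17 at -0.52 among the 10 lower.

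Of 33 measured meningeal genes other than the members, 5 were higher and 23 lower than the reference over the regions (median -0.35). Of all genes, 46.3% were higher and 37.8% lower in that comparison. Crabp2, a retinoic acid binding protein, was at -2.33 in the regions and -3.07 in whole brain, Slc22a6, an organic anion transporter, at -2.31 and -2.56, and Mgp, the matrix Gla protein, at -1.95 in the regions. Col3a1, a fibrillar collagen, was at -2.27 in whole brain, where 1 of its 3 probes was above 0. Lama2, a laminin chain, was higher, at 0.99 and 1.39, although 1 of its 2 probes was not above 0 in the regions. In olfactory bulb against the other regions, decorin (Dcn), a proteoglycan of meningeal fibroblasts, was higher by 0.83 ± 0.11 (adjusted p = 1.63e-05), in the direction of Apod, although 1 of its 2 probes was not above 0. In olfactory bulb 2 of the 33, Dcn and Crabp2 (0.57), were higher and 5 lower, against 13.7% and 15.8% of all genes. Among the 5 lower, against the direction of Apod, were Fmod by -0.98 ± 0.09 (adjusted p = 2.95e-07) and Slc6a13 by -0.72 ± 0.12.

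**Figure D5:**
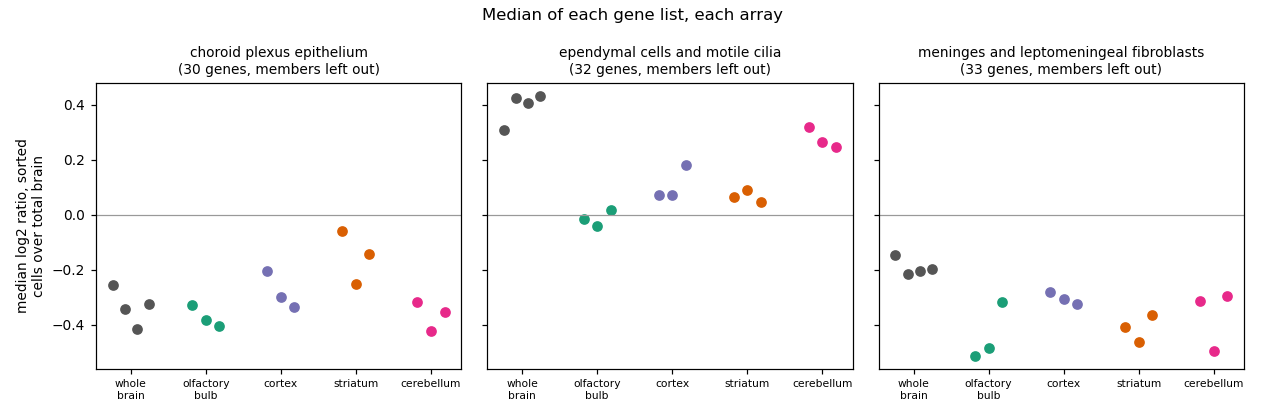
Median log2 ratio of sorted cells over the reference for the genes of each list other than the 8 members, 1 point an array. The choroid plexus median lies between -0.25 and -0.06 on the striatal arrays and between -0.42 and -0.20 on the other 13, the ependymal median is highest in whole brain, and the meningeal median is below 0 on all 16 arrays.

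Markers of other cells were read on the same arrays. Of all genes, 13.4% were higher and 16.3% lower in striatum than in the other regions. Of 10 endothelial and mural genes, 5 were higher in striatum than in the other regions and 1 lower (median 0.22), with Cldn5 at 1.38 ± 0.11 and Rgs5 at 0.48 ± 0.10, and of 10 astrocyte genes 5 were higher and 0 lower (median 0.21), with Gja1 at 0.60 and Aldoc at 0.45. Their list medians over the reference were -1.20 to -0.83 and -0.999 to -0.90 on the 3 striatal arrays, against -1.48 to -0.83 and -1.35 to -0.67 on the 9 other regional arrays. Of 8 oligodendrocyte genes 4 were higher in striatum and 1 lower (median 0.31), with Sox10 at 0.38, and of 8 microglial genes 4 were higher and 1 lower (median 0.20), with Tyrobp at 0.78 and Aif1 at -0.29. These 2 lists had medians over the reference of -1.04 to -0.95 and -0.25 to -0.17 on the striatal arrays, against -1.75 to -0.86 and -0.74 to 0.057 on the 9 other regional arrays. The part of these 4 cell types in the striatal values of Ttr, Foxj1 and Clic6 was not tested. Of the 2 lineages that can make Apod or Ptgds elsewhere, the oligodendrocyte list had a median of -1.75 to -1.36 on the olfactory bulb arrays, where Apod was highest, against -1.50 to -0.86 on the 9 other regional arrays.

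The genes whose brightest probe followed each member most closely over the 12 regional arrays were sought among 15635 genes. For Ttr they were Mta2 (r = 0.979), Slc30a7 and Klhl36, for Foxj1 Tmem258 (0.976), Gfm2 and Cd99l2, and for Clic6 Stk40 (0.947), Cog4 and Calml4. Folr1 was followed by Trank1 (0.986), Mpeg1 and Klf10, Kl by Fam189a1 (0.968), Itsn1 and Necab1, and Ptgds by Ccn6 (0.955), Mdh2 and Ifitm7. Igfbp2 was followed by Fgf10 (0.901), Polr3gl and Brms1l, and Apod by Dcn (0.982), Ctbp2 and Rbm28. Of these, Calml4 and Dcn are on the lists of choroid plexus and meningeal genes. Among the members, Ttr and Foxj1 correlated at 0.89, Foxj1 and Clic6 at 0.75 and Ttr and Clic6 at 0.71, with the 12 arrays sharing the reference and falling into 4 groups, so these are descriptions with no test.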

How the data were processed

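The members and gene lists were chosen with earlier results of these data known. Each sample was 1 Agilent 2-colour array scanned with Agilent Feature Extraction 8.1.1.1, per the submitters' processing notes. Per the labels' protocols, 250 ng of amplified cDNA was labelled with Cy5 (sorted cells) or Cy3 (reference). The deposited scanner files hold spot intensity and local background in each channel, and the authors' deposited value table, a log10 ratio, equalled the scanner's ratio within 0.005 on 43789 features. In limma 3.58.1 (R 4.3.3) spot means were corrected with normexp (offset 50) and normalized by loess within each array, spots of a probe were averaged, and probes were kept if well above background on at least 3 sorted or 8 reference arrays (39226 kept, 1947 removed). Separate channels came from loess and Aquantile. A fit of 5 group means over 16 arrays gave every test, adjusted by Benjamini-Hochberg. The labels do not place replicates in separate animals, so p-values measure only the spread between these samples, whose number limits precision. The fit was checked on simulated data. All member probes are named. Of each list the text draws on the 4 highest and 4 lowest called genes (2 and 2 between regions) that agree on all arrays. A gene's list value is that of its brightest probe. Array names were updated through RefSeq for 31511 of 41173 probes, and 1 spot with a missing field was left out. Figures used matplotlib 3.10.9.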

Additional observations from a re-analysis of the deposited data

Results flagged for a closer look

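A difference among the 4 regions, tested directly by limma's moderated F test over all probes, brought up 9 of the 11 probes. The adjusted p was 1.83e-11 for Ttr, which was high in striatum, and 4.16e-09 for Foxj1, which was high in the same region. It was 5.61e-10 for Apod, which was high in olfactory bulb and low in cortex, and 0.000155 for Ptgds, which was high in cerebellum. The 2 Folr1 probes had 2.58e-06 (A_52_P584335, low in olfactory bulb) and 0.000359 (A_51_P329394, high in striatum). The 2 Clic6 probes had 0.00535 (A_52_P447284) and 0.00715 (A_51_P354307), both high in striatum, and without striatum replicate 3 the second was 0.063. Kl probe A_52_P112159 had 0.0019 and was high in cerebellum, and with the mean of both Kl probes the value was 0.0583, no longer a call. With 55.9% of all probes called by the same test, such a call is common on these arrays. No whole-brain array stood apart from the other 3 for any member probe.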

How the results depend on the processing

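Of 73 called ratios and differences of single member probes, 49 kept their direction and call under every alternative run and without any single array. Foxj1 lost none of 9, Ttr and Apod 1 of 10 each, Ptgds 2 of 10, Folr1 11 of 15, Kl 4 of 8, Clic6 4 of 9 and Igfbp2 1 of 2. Under median centring, without an intensity-dependent curve, called members numbered 11 in whole brain and 10 in striatum against the reference, and these ratios turned sign: Folr1 A_51_P329394 in whole brain (0.32), Kl A_52_P439358 in striatum (-0.49), Clic6 A_52_P447284 in whole brain (0.40) and olfactory bulb (0.17), Clic6 A_51_P354307 in striatum (-0.11) and Igfbp2 in cerebellum (-0.014). With the scanner's own ratio, Kl A_52_P439358 in striatum was -0.37 and Clic6 A_52_P447284 in whole brain 0.18, and the whole-brain median of all probes shifted by 0.11 to 0.15. Without background subtraction Kl A_52_P439358 in striatum was -0.047. With the mean of a gene's probes, 5 members were called over the regions' mean, and Kl was -0.026 in olfactory bulb and -0.038 in cortex, Folr1 -0.0072 in cortex and -0.034 over the regions, and Clic6 -0.074 in cortex, -0.17 in cerebellum and -0.067 over the regions. The cause of these changes was not tested, beyond the fewer genes tested there. All-probe counts against the other regions were 7560 for olfactory bulb, 2438 for cortex and 7311 for striatum with the mean of a gene's probes, 6262 for cortex with arrays scaled to a common spread, and 6777 for striatum in the sorted channel alone. Without single arrays those counts ran from 1680 to 4714 for cortex and from 7067 to 11885 for striatum, and near-0 ratios changed sign for Clic6 A_52_P447284 in whole brain (-0.098 to 0.0063), Igfbp2 in whole brain (-0.016 to 0.060), Folr1 A_51_P329394 in striatum (-0.059 to 0.15) and Clic6 A_51_P354307 in striatum (-0.0093 to 0.20). The fit with replicate number as a block gave 59 of 62 calls. It ended those of Ptgds in olfactory bulb (-0.26, adjusted p = 0.056), Apod in striatum (-0.25, adjusted p = 0.058) and Clic6 A_51_P354307 over the reference in cortex (-0.25, adjusted p = 0.057). Same-numbered arrays of different regions correlated at -0.12 to 0.25 in their deviations, with 5 of 18 pairs over 0.1, so not every pair passed 0.1 and the numbers were not taken as pairs. As a hint from the data and not the design, 8 of 12 arrays correlated best with an array of their own number, and the labels do not say whether same-numbered regions share animals. A fit with scan session as a block could not be made, since one session held all whole-brain arrays and the other all regional ones, nor one with slide, since each slide held 1 array. Values for dim probes, Kl A_52_P439358 and Clic6 A_51_P354307, are limited by signal over background.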
